A study of Homo sapiens with 4 samples.

Results

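Aminoacyl-tRNA synthetases are the enzymes that load each tRNA with its amino acid. The genes described here are 33 nuclear genes for these enzymes, taken from a fixed list by symbol: 18 cytosolic enzymes and 15 mitochondrial ones, whose names end in 2. All 33 were found among the 58219 gene IDs of the table. Of these, 32 passed the filter on low values, under which 16132 genes were tested, and the mitochondrial seryl enzyme SARS2 did not.

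RNA sequencing was done on 4 libraries of GBM8401, a human malignant glioma cell line. The 2 parental libraries came from the line without a named drug treatment. The 2 resistant libraries came from resistant cells derived from GBM8401, called the resistant line below. These were raised in medium with 200 µM temozolomide (TMZ), the alkylating drug used against glioblastoma, for 140 days. Whether they came from 1 derivation or more is not stated. The sources used here do not state whether drug was present at harvest. The labels call the replicates biological but name no separate cultures or derivations, so p-values measure the spread between these samples, which may be technical. Fragment numbers per library, read from the steps in the values, were 27019137 to 30759939, and the deposited totals were 23163310 to 25832511. Of 6 glioma and neural markers, NES, VIM and CD44 were at 3430 or more in every library and lower in resistant cells, while GFAP, S100B and SOX2 were at 10.5 or less. Of the 10 markers of other cell types, CDH5 fell, RBFOX3 rose and the others did not pass the test. Their part in the results below was not tested.

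In human cells translation runs in 2 compartments, and most amino acids have a separate synthetase gene for each. GARS1 and KARS1 are exceptions, since each gives both a cytosolic and a mitochondrial enzyme. Some cytosolic synthetases sit together in the multisynthetase complex, held by the scaffold proteins AIMP1, AIMP2 and EEF1E1. Uncharged tRNA activates the kinase GCN2 (EIF2AK4), which phosphorylates the initiation factor eIF2 and raises translation of the transcription factor ATF4. Genes of cytosolic synthetases are known ATF4 targets. ATF4 pairs with C/EBP proteins on a site called the C/EBP-ATF response element.

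Over all genes tested 37.1% changed (limma, adjusted p under 0.05 over all of them), 16.2% upward and 20.9% downward in resistant cells. Of the 18 cytosolic genes 11 rose in resistant cells, 4 fell and 3 did not pass the test. Of the 14 mitochondrial genes tested 0 rose, 5 fell and 9 did not pass. At an unadjusted p under 0.05 the number of mitochondrial genes higher was also 0. Among the 5397 genes with a mean value of at least 1000, a background added after the values were seen because most cytosolic members lie there, 15.1% rose and 35.2% fell. The cytosolic share that rose, 61.1%, lay above these backgrounds. The cytosolic share that fell, 22.2%, lay near the 20.9% of all genes and below the 35.2% of highly expressed genes. The mitochondrial share that fell, 35.7%, was above that of all genes and close to that of highly expressed genes. Most mitochondrial genes tested had a mean value under 1000, so that last background is an unlike set for them. The median log2 fold change was 0.31 for the cytosolic and −0.12 for the mitochondrial genes, against −0.02 over all genes tested. Without GARS1 and KARS1, which serve both compartments, 10 of 16 cytosolic genes rose and 4 fell. The values of the groups did not overlap in 11 cytosolic genes that were higher and 5 that were lower. The same held for 1 mitochondrial gene that was higher and 6 that were lower. Of all genes tested, 32.2% were higher and 36.4% lower without overlap. Every called synthetase gene was among those without overlap, so a lack of overlap given below adds no separate support to a call. The upward share of all changed genes was 43.7% as deposited and 56.9% when scaled to library totals, while the cytosolic counts were 11 higher and 4 lower under each of the 3 other scalings. The mitochondrial count lower was 3 with library totals and 4 with median-of-ratios or trimmed mean (TMM) factors. Without trend and robust moderation the counts were 5 cytosolic genes higher, 1 lower and 3 mitochondrial genes lower.

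**Figure D1:**
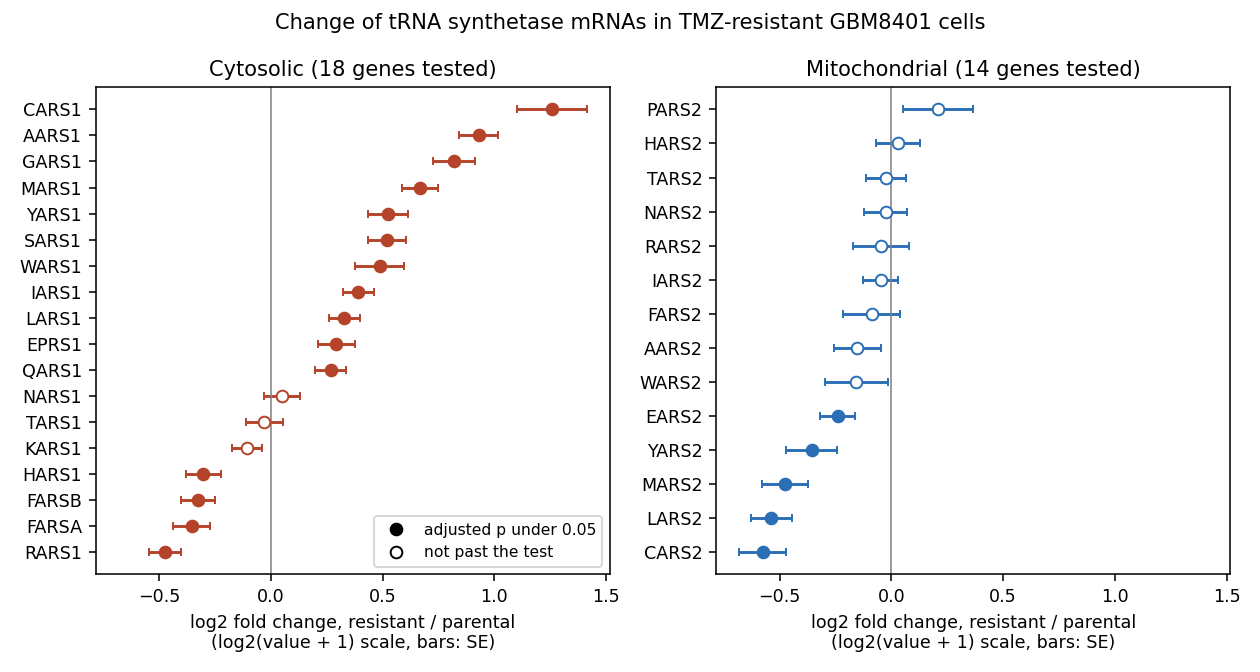
Log2 fold change, resistant over parental, with its standard error (SE), for the 18 cytosolic (left) and 14 mitochondrial (right) genes tested. Filled points passed the test. The cytosolic genes run from CARS1 at 1.26 to RARS1 at −0.47, and the mitochondrial genes from PARS2 at 0.21 to CARS2 at −0.58.

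Promoter sequences with a match to the response element are shown before the values. The genes with the largest rise, for cysteine, alanine, glycine and methionine, each hold a match, a cut made after the values were seen. Next in size of rise, YARS1 had no listed promoter and SARS1 held no match. NARS1 and TARS1 held a match and did not pass the test. Any link between a match and a change was not tested. Promoters of 250 bases before and 50 after a RefSeq start (GRCh38.p14) were listed for 30 of the 33 members. LARS1, YARS1 and AARS2 were not matched. The 8 letters TGATGNAA were searched on both strands. A match was present in 7 of the 16 cytosolic members (43.8%), in 1 of the 14 mitochondrial members (7.14%) and in 4.46% of the 27305 genes of the table. Counted by promoter, it was in 7 of 21 cytosolic promoters (33.3%), 1 of 18 mitochondrial ones (5.56%) and 3.62% of all 35116 promoters. The capitals below mark the match, which reads TTGCATCA, or TTTCATCA in GARS1, where it lies on the reverse strand. Each run goes 5′ to 3′ along the gene. The first 5 belong to genes that rose, the next 2 to cytosolic genes that did not pass the test, and the last to a mitochondrial gene that fell.
AARS1: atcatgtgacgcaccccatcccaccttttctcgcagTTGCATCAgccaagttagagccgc
CARS1: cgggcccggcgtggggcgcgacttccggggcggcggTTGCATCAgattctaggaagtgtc
GARS1: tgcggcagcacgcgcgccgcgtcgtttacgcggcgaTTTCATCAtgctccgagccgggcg
IARS1: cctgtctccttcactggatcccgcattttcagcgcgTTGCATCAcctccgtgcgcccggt
MARS1: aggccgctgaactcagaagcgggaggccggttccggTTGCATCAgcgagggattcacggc
NARS1: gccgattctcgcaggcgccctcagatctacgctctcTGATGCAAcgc
TARS1: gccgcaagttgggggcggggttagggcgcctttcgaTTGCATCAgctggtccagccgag
YARS2: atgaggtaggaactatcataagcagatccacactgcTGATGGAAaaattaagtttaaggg

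These stretches lie at chr16:70289670-70289729 (AARS1, minus strand), chr11:3057402-3057461 (CARS1, minus), chr7:30594809-30594868 (GARS1, plus), chr9:92293687-92293746 (IARS1, minus), chr12:57488028-57488087 (MARS1, plus), chr18:57621812-57621858 (NARS1, minus), chr5:33440931-33440989 (TARS1, plus) and chr12:32756071-32756130 (YARS2, minus). Counted from the first transcribed base as 1, the match spans −2 to 6 in CARS1, −4 to 4 in MARS1, 3 to 10 in TARS1, −13 to −6 in IARS1, 15 to 22 in NARS1 and −33 to −26 in GARS1. In AARS1 it lies farther upstream, from −187 to −180, and in YARS2 from −197 to −190. The stricter TGATGCAA was in 6 of the 16 cytosolic members, leaving out GARS1, in 0 of the 14 mitochondrial members and in 1.08% of all genes. By direction, TGATGNAA was matched in 5 of the 9 cytosolic members with a listed promoter that rose, 0 of the 4 that fell and 2 of the 3 that did not pass. TARS1 and NARS1 therefore carry the letters near the start with log2 fold changes of −0.03 and 0.05, and SARS1, WARS1, EPRS1 and QARS1 rose without them in these windows. A match is a description of letters and no record of binding.

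AARS1 encodes the alanyl enzyme. In scaled fragments per gene it measured 4483 and 4442 in parental cells, and 9186 and 7866 in the resistant line, a 1.90-fold rise (log2 fold change 0.93 ± 0.09 (SE), limma adjusted p = 0.000210). Both resistant libraries lay far above both parental ones. GARS1, the glycyl enzyme of both compartments, stood at 5391 and 5270 in parental and 10294 and 8589 in resistant cells. It rose 1.76-fold (0.82 ± 0.09, limma adjusted p = 0.000466), again without overlap. MARS1, the methionyl enzyme, which also supplies initiator tRNA, measured 4674 and 4698 against 7909 and 7015 and rose 1.59-fold (0.67 ± 0.08, limma adjusted p = 0.000555). The gene model of MARS1 overlaps DDIT3, the stress factor CHOP, on the other strand. In a comparison of overlapping genes added after the values were seen, DDIT3 differed by 191 between the group means, against 2776 for MARS1. DDIT3 itself was at 68.3 and 72.7 in parental and 282 and 241 in resistant cells. With the strand setting of the counting unknown, its value sets no bound on the fragments it may add to MARS1.

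CARS1, the cysteinyl enzyme, had the largest fold of the family at the lowest level of the cytosolic enzymes. It measured 102 and 105 in parental cells against 245 and 254 in the resistant line, a 2.39-fold rise (1.26 ± 0.16, limma adjusted p = 0.000620). Since all dividing cells charge cysteine, this low level is not read as low expression, and the fold describes only the fragments assigned to this ID. SARS1, the seryl enzyme, rose 1.43-fold, from 4410 and 4227 to 6615 and 5798 (0.52 ± 0.08, limma adjusted p = 0.00213). YARS1, the tyrosyl enzyme, rose 1.44-fold, from 4789 and 4386 to 7043 and 6172 (0.52 ± 0.09, limma adjusted p = 0.00260). In each of these 3 genes the groups did not overlap, as in the 32.2% of all genes tested that were higher without overlap. AARS1, CARS1, GARS1, MARS1 and SARS1 passed in each of the 14 alternative settings. YARS1 missed in 2 of them, a test against a 1.2-fold change (adjusted p = 0.0552) and the model without a trend (0.0521).

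The other 5 cytosolic genes that rose did so by 0.27 to 0.49 on the log2 scale. WARS1, the tryptophanyl enzyme and also an interferon-induced gene, had a log2 fold change of 0.49 ± 0.11, from a mean of 5047 ± 380 to 7104 ± 1038 (SD, n = 2). IARS1, the isoleucyl enzyme, rose from 14623 ± 577 to 19176 ± 725. The leucyl enzyme LARS1, which also senses leucine for mTORC1, measured 8911 and 8855 in parental and 11534 and 10792 in resistant cells. EPRS1, a fused enzyme for glutamate and proline, went from 8781 ± 398 to 10784 ± 1002, and QARS1, the glutaminyl enzyme, from 6537 ± 225 to 7869 ± 163. In all 5 the groups did not overlap, beside 32.2% of all genes tested that were higher without overlap. IARS1 was called with each library left out in turn, and the other 4 lost their call in at least 1 such fit. Without resistant replicate 1 the number of cytosolic genes called higher was 7, with EPRS1 at 0.20 (adjusted p = 0.183), LARS1 at 0.28 (0.0608), QARS1 at 0.29 (0.0653) and WARS1 at 0.34 (0.0512). Without parental replicate 1 it was 9, with EPRS1 at 0.25 (adjusted p = 0.105) and QARS1 at 0.23 (0.0832), and without resistant replicate 2 it was 10, with QARS1 at 0.25 (0.102).

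**Figure D2:**
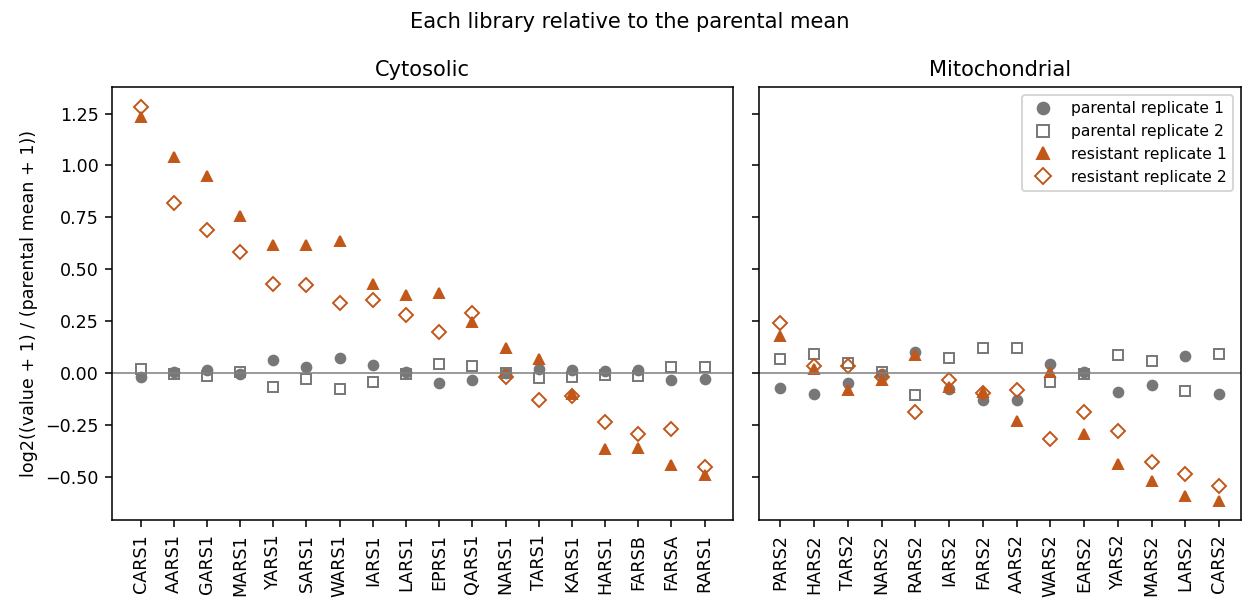
Value of each library relative to the parental mean of the gene, on a log2 scale, for cytosolic (left) and mitochondrial (right) genes ordered by fold change. Grey marks are parental and orange marks resistant libraries, filled for replicate 1. Resistant replicate 1 lies farther from the parental libraries than resistant replicate 2 in 18 of the 20 called genes.

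Arginine, phenylalanine and histidine were the exceptions among the cytosolic enzymes. RARS1, the arginyl enzyme, stood at 5805 and 6039 in parental and 4216 and 4324 in resistant cells, a 1.39-fold fall (−0.47 ± 0.07, limma adjusted p = 0.00151). FARSA, the alpha subunit of the phenylalanyl enzyme, fell 1.28-fold from 3951 and 4125 to 2975 and 3352 (−0.35 ± 0.08, limma adjusted p = 0.0122). FARSB, the beta subunit that joins it in a tetramer, fell 1.25-fold, from 2341 ± 30.9 to 1868 ± 60.5 (SD, n = 2), so both subunits of this enzyme moved by similar amounts. The histidyl enzyme HARS1 fell 1.23-fold, from 4707 ± 49.5 to 3824 ± 237. HARS1 overlaps WDR55 on the other strand, which went from a mean of 2618 to 2234. In none of the 4 did the groups overlap, beside 36.4% of all genes tested that were lower without overlap. Without resistant replicate 1 only RARS1 of the 4 was called, with FARSA at −0.27 (adjusted p = 0.106), FARSB at −0.29 (0.104) and HARS1 at −0.24 (0.136). FARSB also missed without resistant replicate 2 (−0.36, 0.0503) and HARS1 without parental replicate 1 (−0.29, 0.0541).

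Lysine, asparagine and threonine made up the rest. The log2 fold change was −0.11 ± 0.07 for KARS1, the lysyl enzyme of both compartments (limma adjusted p = 0.263), 0.05 ± 0.08 for NARS1 (0.662) and −0.03 ± 0.08 for TARS1 (0.817). The KARS1 values were lower in both resistant libraries, while those of NARS1 and TARS1 overlapped between groups.

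Among the mitochondrial enzymes the falls were in those for cysteine, leucine, methionine, tyrosine and glutamate. CARS2, the cysteinyl enzyme, which is also known to form cysteine persulfides, was at 953 and 1088 in parental and 666 and 700 in resistant cells. It fell 1.49-fold (−0.58 ± 0.10, limma adjusted p = 0.00336). LARS2, the leucyl enzyme, fell 1.45-fold from 2224 and 1974 to 1392 and 1499 (−0.54 ± 0.09, limma adjusted p = 0.00278). MARS2, the methionyl enzyme, which is encoded without introns, fell 1.39-fold from 765 and 828 to 554 and 591 (−0.47 ± 0.10, limma adjusted p = 0.00773). In these 3 genes the lowest parental value exceeded the highest resistant one, as in 36.4% of all genes tested. CARS2 overlaps ING1 on the other strand, which differed by −89.7 between the group means, against −338 for CARS2. This difference likewise sets no bound on the fragments ING1 may add to CARS2.

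YARS2, the tyrosyl enzyme, had 667 and 756 against 525 and 586, a 1.28-fold fall (−0.36 ± 0.11, limma adjusted p = 0.0393). EARS2, the glutamyl enzyme, which charges both glutamate and glutamine tRNAs before the latter is amidated, fell 1.18-fold from 2592 ± 11.1 to 2196 ± 115 (SD, n = 2; −0.24 ± 0.08, limma adjusted p = 0.0433). Both calls were weak. EARS2 kept its call in 4 of 14 alternatives and YARS2 in 8. Scaled to library totals the mitochondrial count was 3, with EARS2 at −0.14 (adjusted p = 0.151) and YARS2 at −0.26 (0.0636). Without parental replicate 2, EARS2 stood at −0.24 (adjusted p = 0.0918) and YARS2 at −0.27 (0.148), and without resistant replicate 2 they stood at −0.29 (adjusted p = 0.0925) and −0.44 (0.0788), with a count of 3 each time. Without resistant replicate 1 the count was 2, with EARS2 at −0.19 (adjusted p = 0.285), YARS2 at −0.28 (0.252) and MARS2 at −0.43 (0.0708). EARS2 also missed without parental replicate 1 (−0.24, 0.106). YARS2 overlaps DNM1L on the other strand, at a mean of 3229 and 2949, several times its own level.

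The 9 mitochondrial genes that did not pass had log2 fold changes between −0.16 and 0.21. They were WARS2, AARS2, FARS2, IARS2, RARS2, NARS2, TARS2, HARS2 and PARS2. AARS2, the partner of the strongly changed AARS1, was at 1583 and 1883 in parental and 1477 and 1635 in resistant cells, with overlapping groups (−0.15 ± 0.11, limma adjusted p = 0.301). PARS2, the prolyl enzyme, had the highest log2 fold change of the compartment, 0.21 ± 0.16 (0.333), with means of 156 ± 10.9 and 180.3 ± 5.71 (SD, n = 2). NARS2 was nearly level, at 669 ± 3.48 and 657 ± 5.55. HARS2 lies head to head with HARS1 on chromosome 5 and their gene models overlap. HARS2 had a log2 fold change of 0.03 ± 0.10 (0.844) where HARS1 fell. SARS2, the partner of SARS1, was listed at 0.813, 3.82, 4.52 and 3.40. Its overlapping neighbour MRPS12, a mitochondrial ribosomal protein gene, was listed at 1.63 or less in every library, so the low values of this locus are not read as absence of expression.

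Because most amino acids have an enzyme in each compartment, the ratio within an amino acid was taken in each library as log2 of the cytosolic over the mitochondrial value, without division by length. Of 15 such ratios, 8 were higher in both resistant libraries than in either parental one, 4 were lower in both and 3 overlapped. Some ratios share a gene, EPRS1 or FARS2, and are not separate. No background of ratios between other genes was taken. Of single genes, 32.2% of all tested were higher without overlap and 36.4% lower. The largest shifts were for cysteine, methionine and alanine. The CARS1 to CARS2 ratio stood at −3.20 and −3.36 in the parental line against −1.44 and −1.46 in the resistant line. For methionine it was 2.61 and 2.50 against 3.83 and 3.57, and for alanine 1.501 and 1.24 against 2.64 and 2.27. Cysteine, leucine, methionine and tyrosine combined a called rise of the cytosolic gene with a called fall of the mitochondrial one, as did the ratio of EPRS1 to EARS2 for glutamate. For alanine, isoleucine and tryptophan the cytosolic gene alone passed the test. The ratios for arginine, histidine and the phenylalanine subunits moved down, by 0.43, 0.33 and 0.24 to 0.27. Those for proline, asparagine and threonine overlapped.

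**Figure D3:**
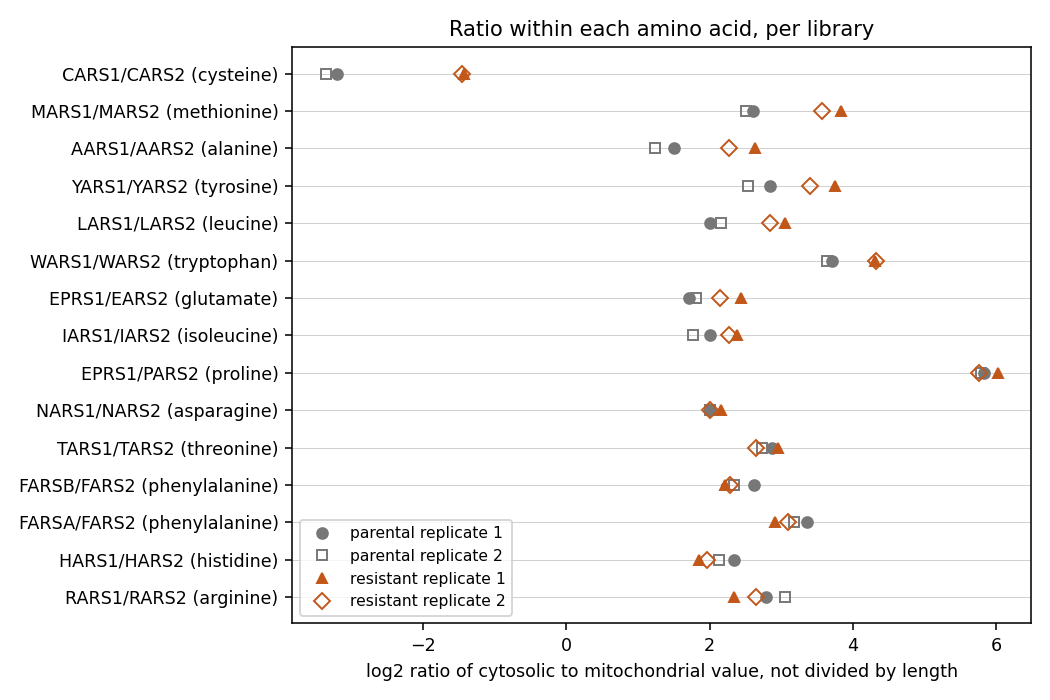
Log2 ratio of the cytosolic to the mitochondrial value in each library for 15 pairs that charge the same amino acid, ordered by the difference between groups. Resistant libraries (orange) lie to the right of parental ones (grey) in 8 pairs, to the left in 4 and among them in 3.

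Summed over the 18 cytosolic genes, the genes took 0.413% and 0.391% of the deposited signal in parental cells, and 0.560% and 0.492% in the resistant line. The mitochondrial sum took 0.0690% and 0.0697% against 0.0653% and 0.0647%. These shares divide by the library total, which was lower in both resistant libraries than in either parental one. As deposited, without this division, the cytosolic sum went from 101620 ± 957 to 124485 ± 7476 (SD, n = 2). The mitochondrial sum went from 17555.5 ± 637 to 15402 ± 380. The cytosolic sum was thus 5.98 and 5.61 times the mitochondrial one in parental cells and 8.57 and 7.61 times in resistant cells, without overlap. The mean log2 value of the cytosolic genes exceeded that of the tested mitochondrial genes by 2.28 and 2.18 in parental cells, against 2.74 and 2.63 in the resistant line. This gap widened by 0.45 by means and by 0.82 when medians over the genes were used. Fewer or more cells in a given state and less or more RNA per cell cannot be told apart in such bulk samples.

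Levels between genes were compared per kilobase of merged exons. Apart from CARS1 and SARS2, which were set aside after their values were seen, the parental means ran from 559 to 1976 for cytosolic and from 66.4 to 951 for mitochondrial genes, with medians of 1126 and 283. IARS1 was the highest in both groups, at 1976 ± 77.9 and 2591 ± 98.0 (SD, n = 2), and the mitochondrial isoleucyl enzyme IARS2 was the highest of its compartment, at 951 ± 68.4 and 919 ± 13.5. The order within the cytosolic set changed. GARS1 moved from rank 8 of 33 at 1284 ± 20.6 to rank 2 at 2274 ± 290, and AARS1 from rank 11 at 992 ± 6.48 to rank 4 at 1896 ± 208. RARS1 moved the other way, from rank 2 at 1731 ± 48.3 to rank 11 at 1248 ± 22.2, and FARSA from rank 3 at 1658 ± 50.6 to rank 10 at 1299 ± 109. The ranks depend on the length used. Per kilobase of the longest transcript, FARSA stood at 1921 and 2006 in the parental libraries. KARS1, at rank 5 in parental cells by merged exons, stood above it there at 2535 and 2476. Neighbouring ranks often lay within their spread: in resistant cells EPRS1 at 1979 ± 184 and AARS1 did not differ beyond it.

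**Figure D4:**
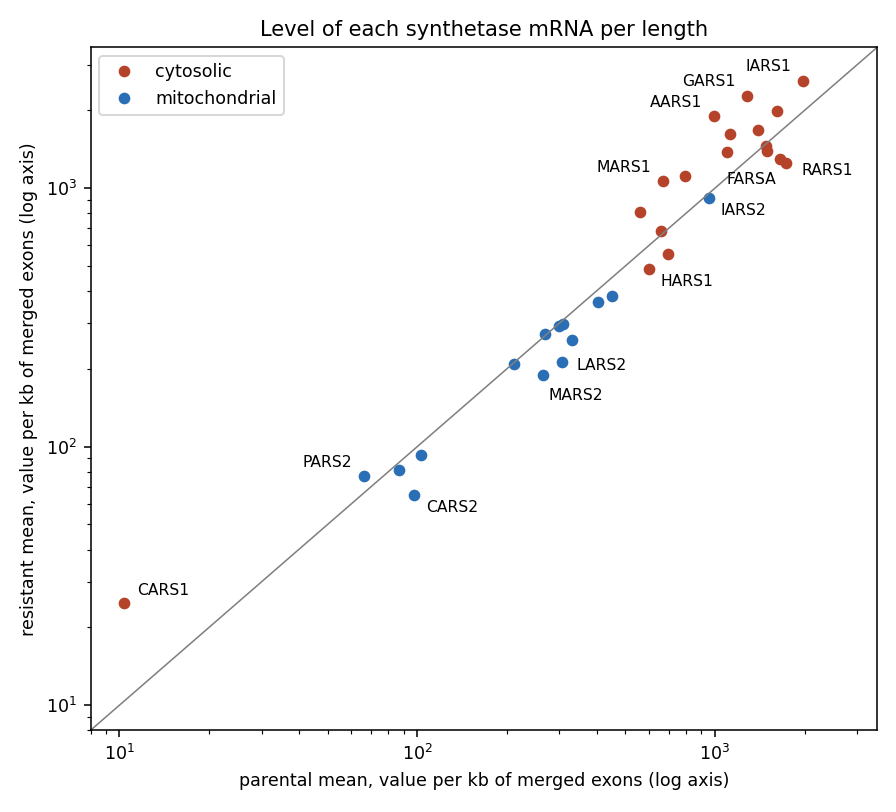
Mean value per kilobase of merged exons in parental (x) and resistant (y) cells, both on log axes, for the 32 genes tested, with the line of equal values. GARS1 and AARS1 stand above the line, RARS1 and FARSA below it, and CARS1 is far below the other cytosolic genes in both groups.

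Synthetases fall into 2 structural classes, with a Rossmann fold in class I and an antiparallel sheet in class II. This grouping was added after the values were seen and was not tested, and its counts stand beside 16.2% of all genes tested that rose and 20.9% that fell (35.2% of highly expressed genes). Of the 8 cytosolic class I genes 7 rose and RARS1 fell, with a median log2 fold change of 0.44. Of the 9 class II genes AARS1, GARS1 and SARS1 rose, 3 fell and 3 did not pass, with a median of −0.03. EPRS1 holds an enzyme of each class. In mitochondria 5 of 8 class I genes fell and 0 of 6 tested class II genes changed.

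Within the multisynthetase complex the enzymes and the scaffold went apart. Of the 7 listed cytosolic enzymes it holds, 5 rose (EPRS1, IARS1, LARS1, MARS1 and QARS1), RARS1 fell, and KARS1 did not pass. Of the 3 scaffold genes 2 fell and 0 rose, also at an unadjusted p under 0.05 (limma). AIMP2 was at 1585 and 1609 in parental and 915 and 1008 in resistant cells (−0.73 ± 0.09, limma adjusted p = 0.000597), and EEF1E1 at 683 and 744 against 459 and 487 (−0.59 ± 0.11, limma adjusted p = 0.00343). AIMP1 stood at −0.15 ± 0.09 on the log2 scale (0.216) and was lower in both resistant libraries.

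Among synthetases outside the list, the second threonyl gene TARS3 fell by 0.39 on the log2 scale (limma adjusted p = 0.0209). The valyl genes VARS1 and VARS2 were listed at 14.3 or less in every library and were not tested. These low values are not read as absence of expression.

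Counts in other lists of tRNA genes stand beside the same shares over all genes tested, 16.2% higher and 20.9% lower. Of 7 genes for tRNA end processing and export 4 fell and 0 rose (also 0 at an unadjusted p under 0.05, limma), where 35.2% of highly expressed genes fell. ELAC2, which trims tRNA 3′ ends, fell 1.41-fold, TRNT1, which adds the CCA end to which the amino acid is attached, 1.34-fold, and the 3′ end binding protein gene SSB and the ligase gene RTCB 1.25-fold each. The export receptor gene XPOT stood at 0.11 on the log2 scale (0.315). Of 5 genes that clear mischarged or stalled tRNA, DTD1 fell 1.25-fold (0.0474) and 4 did not pass. None of the 4 mitochondrial amidotransferase and formyltransferase genes passed, with 0 higher and 1 lower, QRSL1, at an unadjusted p under 0.05 (limma). In the selenocysteine route, which begins with SARS1 charging serine to a special tRNA, the kinase gene PSTK rose 1.58-fold (0.0116) and SEPSECS 1.37-fold (0.0362), while the selenophosphate synthetase gene SEPHS1 fell 1.60-fold (0.000376).

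Of the 18 genes for sensing uncharged tRNA and the ATF4 arm 5 rose and 5 fell, 27.8% each way. ATF4 was at 5714 and 6179 in parental and 9169 and 9195 in resistant cells (0.63 ± 0.07, limma adjusted p = 0.000472). Its C/EBP partner gene CEBPG rose 1.64-fold, SESN2 2.18-fold and the asparagine synthetase gene ASNS 3.26-fold. Of the same arm TRIB3, listed at 32.4 or less in every library, stood at 0.07 on the log2 scale (adjusted p = 0.938), and CEBPB at 0.32 (0.370) with overlapping groups. The log2 difference was −0.06 for the kinase gene EIF2AK4 (limma adjusted p = 0.541) and −0.07 for its activator GCN1 (0.489); these are mRNA levels and carry no measure of kinase activity. EIF2B1, EIF2B3 and EIF2B5, subunits of the exchange factor that eIF2 phosphorylation inhibits, fell 1.33-fold, 1.29-fold and 1.32-fold.

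The 2 resistant libraries were not equally far from the parental ones. This count was made after the values were seen. Resistant replicate 1 was above replicate 2 in 9 of the 11 cytosolic genes that rose, and below it in all 9 synthetase genes that fell. Replicate 1 was the farther library in 41.2% of all genes that rose and in 68.7% of all that fell. ASNS showed the same order, at 5283 and 3574. What set these libraries apart was not tested.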

How the data were processed

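The authors deposited a single table holding the 4 libraries side by side, made with a strand-specific kit per the labels' protocols. The submitters' processing notes name GRCh38.p10 and, in no stated order, Cufflinks 2.2.1, Cuffdiff, HISAT2 2.1.0, Trimmomatic 0.36, SAMtools 1.2 and bcl2fastq. For settings, annotation release and the strand setting of the counting, the answer is "not given in the sources used here". Values as deposited are a signal, namely fragments per gene times a factor per library (0.753 to 0.956 per fragment), without division by length. They were whole multiples of it within 0.05 for 93.8% to 94.3% of values above 0, too few to recover reads for a count test.

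Genes with a value of at least 10 in 2 libraries and a sum of at least 15 were kept, without rescaling. limma 3.58.1 (R 4.3.3) was fitted to log2(value + 1) with the group alone, a mean-variance trend and robust moderation. Tests were two-sided, with Benjamini-Hochberg adjustment over 16132 genes and calls at 0.05. Folds on this scale understate the change of low genes.

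The fit was tested on simulated data, and the simulation did not pass at first. With each gene's raw residual spread as noise no changed gene was recovered, and with moderated spreads the share of false calls exceeded the bound set for it. The noise model and the pass criterion were each revised after seeing these failures, until noise drawn from limma's own fitted prior passed. The fit itself was not altered. That last simulation shares the model's assumptions and held far fewer changed genes than were called in the data. It still missed most of the smaller changes put into it and many of the larger ones. Genes that did not pass may thus have changed. The calls rest on the moderation, and the adjusted p-values may understate the share of false calls.

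Symbols came from a gene name table (57378 of 58219 IDs matched), gene models and merged exon lengths from GENCODE 29 (57881 matched), and promoters from RefSeq. The counting's strand setting being unknown, overlapping genes on opposite strands cannot be told apart. The members and lists were chosen with earlier results of these data known. Values in every library were given for called members with a change of at least 0.5 on the log2 scale, their partners, and the 2 called members with the largest change against most of their compartment. From other lists up to 4 called genes with the smallest adjusted p were named, and genes named beyond that were chosen after their values were seen. 14 alternatives were run for each gene. Some genes of the related lists are not reported here.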

Additional observations from a re-analysis of the deposited data

How the results depend on the processing

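None of the 20 called synthetase genes changed direction in any of the 14 alternatives, and none of the 12 that missed passed in one. The limit is 2 libraries a group, from resistant cells that may be of 1 derivation. Without trend and robust moderation 3686 genes changed, against 5991, with 5 cytosolic synthetases higher, 1 lower and 3 mitochondrial ones lower. Tested against a 1.2-fold change the counts were 2502, 5, 0 and 0. Scaled to library totals, 3 mitochondrial synthetases were lower. Leaving out 1 library at a time gave 3528 to 5435 changed genes, 7 to 11 cytosolic synthetases higher, 1 to 4 lower, and 2 to 4 mitochondrial ones lower; in such fits a lone library is assumed to vary like the other group. The cause was not tested. Same-numbered libraries share only a number (correlation of deviations 0.265 over 2 pairs), and with a replicate block 8624 genes changed and the synthetase counts were 11, 4 and 5. By medians over members the gap between compartments widened by 0.82 in place of 0.45. With the longest transcript as length the median cytosolic level per kilobase was 6.70 times the mitochondrial one in place of 5.18. Both ratios are means over the 4 libraries of both groups, with CARS1 and SARS2 included. Per kilobase of merged exons the medians were 1110 and 270 in parental cells, against 1329 and 213 in resistant cells. Reversals were limited to genes that did not pass. Scaled to library totals the log2 fold change was 0.066 for TARS1, 0.0068 for FARS2, 0.047 for IARS2, 0.069 for NARS2, 0.050 for RARS2 and 0.072 for TARS2. TMM factors gave 0.014 for TARS1, 0.017 for NARS2 and 0.020 for TARS2, and median-of-ratios factors 0.0031 for NARS2 and 0.0056 for TARS2. Leaving out 1 library gave −0.017 to 0.12 for NARS1, −0.13 to 0.069 for TARS1, −0.21 to 0.036 for FARS2, −0.067 to 0.13 for HARS2, −0.12 to 0.025 for IARS2, −0.18 to 0.091 for RARS2, −0.080 to 0.033 for TARS2 and −0.32 to 0.0034 for WARS2.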
